A study of Mus musculus with 6 samples.

Results

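The genes described here build the acetylcholine receptor and its anchorage at the neuromuscular junction, the synapse through which a motor nerve excites skeletal muscle. They were 10 genes given by name: the receptor subunits Chrna1, Chrnb1, Chrnd, Chrng and Chrne, the organisers Agrn, Musk and Rapsn, the esterase Ache and the adhesion molecule Ncam1. Every probe set with 1 gene symbol from this list was taken, which gave 19 of the 45037 probe sets on the array. The samples were healing bone callus from Cyp24a1 (-/-) mice and from their Cyp24a1 (+/-) littermates, called null and heterozygous below. All animals were 12 weeks old, of a C57BL6J x 129SV mixed background, and had a tibial osteotomy stabilised by a rod in the marrow cavity, with callus taken on day 14. Each group had 3 Affymetrix Mouse 430_2 arrays. Replicates are numbered here in the order of deposition, and equal numbers do not pair arrays between the groups. The heterozygous mice carry 1 disrupted allele themselves, and no array of wild-type or unoperated tissue was analysed here. Whether the samples are separate animals is not stated in the labels, so errors measure the spread between these samples.

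Muscle acetylcholine receptors are pentamers of alpha, beta and delta subunits with a gamma subunit in the fetus or an epsilon subunit in the adult. The gamma gene, Chrng, is silenced as innervation matures and returns, together with the alpha and delta genes, when a fibre loses its nerve or regenerates. Agrin from the nerve acts through Lrp4 and the kinase MuSK, with Dok7 as the cytoplasmic activator of MuSK, to gather receptors under the terminal, where rapsyn holds them. Myogenic factors act on receptor genes through E-boxes, whose consensus is CANNTG. Synaptic nuclei use Ets-family factors that bind an N-box, CCGGAA.

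The proximal promoters are shown for the common alpha gene, the fetal gamma gene and the adult epsilon gene, because the fetal and the adult gene are compared below and the alpha gene is shared by both receptor forms. Each run holds the 250 bases before the start used in the RefSeq-derived table (GRCm38.p6), 5′ to 3′ on the gene's strand, with E-boxes and N-boxes in capitals. They lie at chr2:73580339-73580588 (minus strand) for Chrna1, chr1:87205561-87205810 (plus strand) for Chrng and chr11:70619195-70619444 (minus strand) for Chrne.
Chrna1: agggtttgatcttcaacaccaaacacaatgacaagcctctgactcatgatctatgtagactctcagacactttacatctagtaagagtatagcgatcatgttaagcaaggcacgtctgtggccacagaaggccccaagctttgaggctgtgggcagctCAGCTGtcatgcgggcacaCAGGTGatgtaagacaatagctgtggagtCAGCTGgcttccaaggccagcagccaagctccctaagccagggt
Chrng: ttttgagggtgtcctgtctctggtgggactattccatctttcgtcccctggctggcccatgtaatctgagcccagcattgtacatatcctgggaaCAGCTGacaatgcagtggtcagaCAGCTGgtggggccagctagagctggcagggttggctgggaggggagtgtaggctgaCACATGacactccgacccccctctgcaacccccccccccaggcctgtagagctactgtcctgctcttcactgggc
Chrne: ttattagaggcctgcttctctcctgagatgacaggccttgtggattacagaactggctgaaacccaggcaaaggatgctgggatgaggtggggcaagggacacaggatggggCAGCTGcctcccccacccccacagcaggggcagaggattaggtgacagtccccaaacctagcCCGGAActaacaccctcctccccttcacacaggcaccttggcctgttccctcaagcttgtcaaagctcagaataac

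Of the 10 genes, 7 had such a window in the table, in 8 windows. The letters CANNTG occurred 3 times each in the windows of Chrna1, Chrng, Chrnb1 and Musk. Of all 32851 windows of this length, 66.2% held the motif and 12.2% held it at least 3 times. Its form CAGCTG, which is counted within CANNTG and reads the same on both strands, occurred 2 times in Chrna1, starting at positions -92 and -44, and 2 times in Chrng, at -155 and -132. It occurred once each in Chrne (-138) and Musk (-68), against 13.0% of all windows with any copy and 1.3% with at least 2. The N-box letters, searched as CCGGAA on both strands, were found in 1 of the 8 windows, that of Chrne at position -76, and in 12.0% of all windows. These are matches of letters in a short window, and binding was not measured.

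Values are log2 intensities as deposited, so a step of 1 is a factor of 2, and the level of one probe set cannot be set against that of another. As a guide to values of silent genes, 30 probe sets of 20 genes of testis, oocyte, retina and exocrine pancreas had a median of 2.89 and a 90th percentile of 4.57, a percentile chosen after the values were seen. Of the 19 probe sets, 13 lay above 4.57 on all arrays and 4 at or under it on all arrays, namely 1427728_at of Chrng, 1443980_at of Agrn, and 1421966_at and 1450438_at of Ncam1. Those 4 are named and counted among the 19, but their values are not read further.

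Muscle RNA was measured in every sample. The actin gene Acta1 read 14.44, 14.46 and 14.39 on the null arrays and 14.49, 14.43 and 14.43 on the heterozygous arrays. Callus genes were present too, with bone sialoprotein (Ibsp) at 9.46, 9.59 and 9.84 in null callus, against 10.44, 10.12 and 10.01 in heterozygous callus. Null replicate 1 and heterozygous replicate 3 stood apart as poor in marrow. The neutrophil alarmin S100a8 read 10.16 and 9.25 on these arrays while the remaining arrays ran from 13.01 to 13.25. The red cell anion exchanger gene Slc4a1 read 3.06, 10.72 and 10.03 in null callus, against 10.41, 10.49 and 4.89 in heterozygous callus. The creatine kinase gene Ckm of muscle ran from 13.60 to 14.10 over the 6 arrays. The mean of 22 mature fibre genes, as a deviation from the mean of the 6 arrays, was also lowest there, at -0.55 and -0.30, against 0.13 to 0.29 elsewhere. Fewer muscle cells and less RNA per muscle cell cannot be told apart in such tissue.

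The genes were chosen with earlier results of the null against heterozygous comparison known, so their differences, null minus heterozygous on the log2 scale, are given as a description, with the SE of a limma fit over all probe sets and no p-value. On the highest probe set of each gene, 7 of the 10 genes averaged lower and 3 higher in null callus, where 50.3% of all 18193 genes were lower. The median difference was -0.58, beside -0.0017 over all genes. Over all 19 probe sets, 13 were lower and 6 higher, and the median was -0.13, beside -0.0081 over all probe sets. Of the 15 not at or under the silent level on all arrays, 9 were lower and 6 higher. In limma, 0 of the 19 probe sets passed an adjusted p of 0.05, as did 0% of all probe sets, and 0 reached an unadjusted p of 0.05, as did 3.69% of all. The lowest adjusted p of any probe set was 0.775. The groups did not overlap for 1 of the 19, Chrnd, which was lower in null callus, beside 8.95% of all probe sets in either direction and 5.38% in that one.

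The alpha subunit Chrna1, which carries most of the acetylcholine binding site, read 11.50, 10.40 and 9.68 in null callus, against 11.41, 11.29 and 11.52 in heterozygous callus. The heterozygous arrays lay within 0.22 of each other, while the null arrays spread over 1.82, with null replicate 1 at the heterozygous level and the other two below it. The null mean was 10.53 ± 0.92 against a heterozygous mean of 11.41 ± 0.11 (SD, n = 3 each), a difference of -0.88 (SE 0.43) that makes the heterozygous level 1.84-fold higher. It was -1.37 without null replicate 1 and -0.46 without null replicate 3.

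Chrnd, the delta subunit that forms a binding site with alpha in both the fetal and the adult receptor, had the same order of arrays within each group. It read 6.99, 6.40 and 5.65 in null callus, against 7.04, 6.99 and 7.22 in heterozygous callus. The highest null value, 6.990, lay just under the lowest heterozygous one, 6.991, a gap far smaller than the spread within either group. The null mean was 6.35 ± 0.67 against a heterozygous mean of 7.08 ± 0.12 (SD, n = 3 each), and the difference was -0.74 (SE 0.32). It was -0.39 without null replicate 3.

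Chrnb1, the beta subunit common to both receptor forms and the one that MuSK signalling phosphorylates, varied less. Its values were 9.78, 9.06 and 9.33 in null callus, against 9.92, 9.52 and 10.01 in heterozygous callus, with null replicate 1 inside the heterozygous range. The null mean was 9.39 ± 0.36 against a heterozygous mean of 9.81 ± 0.26 (SD, n = 3 each), and the difference was -0.43 (SE 0.22). It was -0.26 without null replicate 2.

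**Figure D1:**
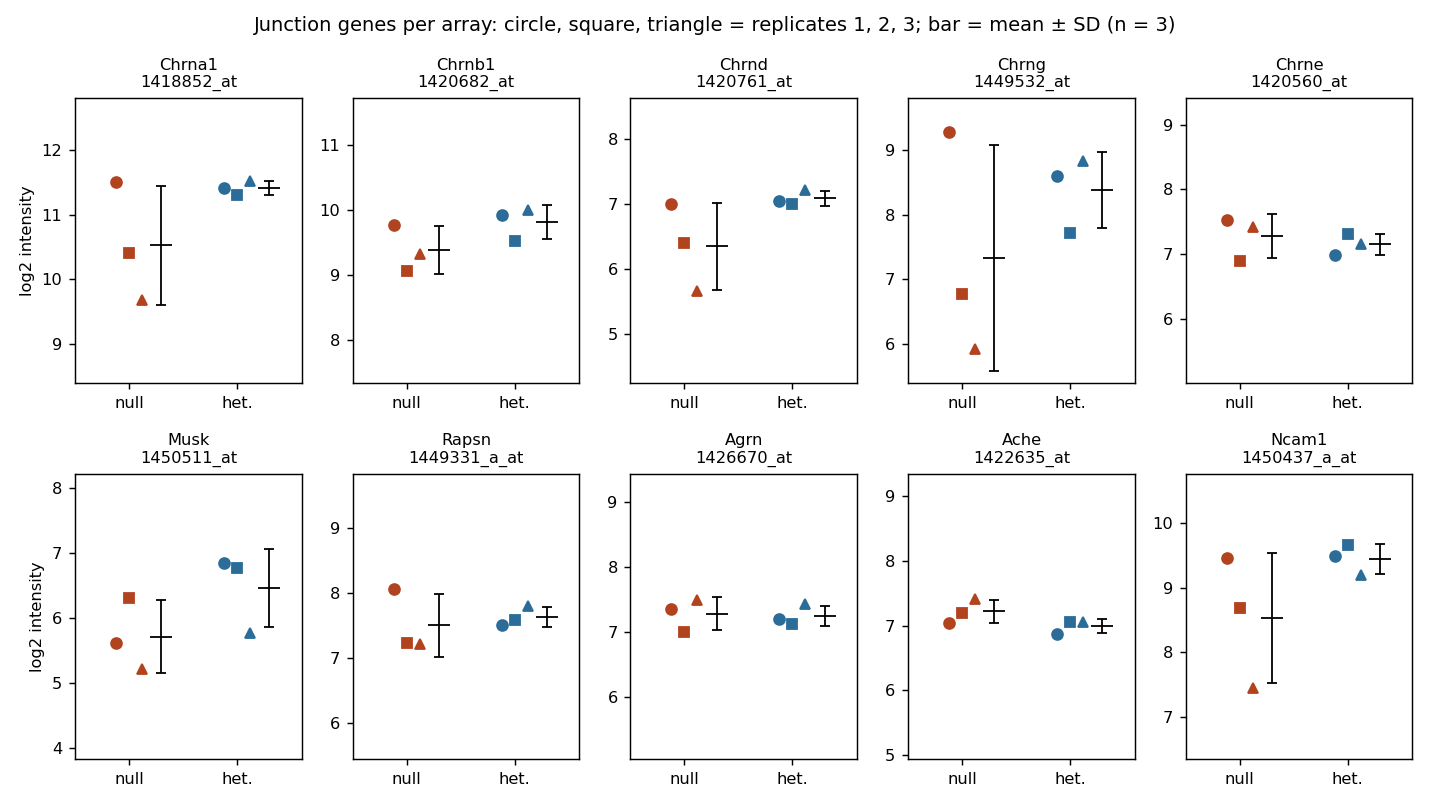
Log2 intensity on the highest probe set of each of the 10 genes, in 3 null (left, red) and 3 heterozygous (right, blue) callus arrays, with all panels spanning the same number of log2 units; circle, square and triangle are replicates 1, 2 and 3, and bars are mean ± SD. Null replicate 1 sits at the heterozygous level for Chrna1 (11.50) and highest of all for Chrng (9.28), while null replicates 2 and 3 lie below every heterozygous array for Chrna1, Chrnb1, Chrnd and Chrng.

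The fetal subunit Chrng was the most variable of the 10 genes. Probe set 1449532_at read 9.28, 6.78 and 5.92 in null callus, against 8.59, 7.71 and 8.82 in heterozygous callus. Its highest and lowest values were both null, a 10.2-fold span, and its SD over the 6 arrays (1.30) exceeded that of 99.1% of genes. Probe set 1452520_a_at gave the same order within the null group, at 7.21, 4.46 and 3.23, with 6.82, 5.25 and 6.99 in heterozygous callus. On this probe set null replicates 2 and 3 were at or under the level of the silent genes.

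The Chrng means on 1449532_at were 7.33 ± 1.74 for null against 8.37 ± 0.59 for heterozygous callus (SD, n = 3 each). The difference of -1.05 (SE 0.84) was smaller than the SD of the null arrays. On 1452520_a_at it was -1.39 (SE 1.02). Single arrays set its size: on 1449532_at it was -2.02 without null replicate 1 and -0.345 without null replicate 3.

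The adult subunit Chrne held nearly one level. It read 7.53, 6.90 and 7.43 in null callus, against 6.98, 7.32 and 7.16 in heterozygous callus, so that both the highest and the lowest array were null. Its null mean was 7.28 ± 0.34 against a heterozygous mean of 7.15 ± 0.17 (SD, n = 3 each), and the difference was 0.13 (SE 0.19). The difference was 0.0096 without null replicate 1 and 0.32 without null replicate 2. Its SD over the arrays, 0.25, lay at percentile 64.6 of all genes.

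To set the fetal against the adult gene without comparing probe levels, the deviation of Chrne from its own mean was subtracted from that of Chrng on each array. The result was 1.12, -0.75 and -2.14 on the null arrays and 0.98, -0.24 and 1.03 on the heterozygous arrays. The null arrays lay on both sides of the heterozygous range, with replicate 1 just above it and replicates 2 and 3 below it. The null minus heterozygous difference was -1.18 (SE 1.03). Leaving out null replicate 1 gave -2.03 and leaving out null replicate 3 gave -0.40. The SD among the null arrays (1.63) exceeded the difference.

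Musk, the receptor tyrosine kinase that starts the postsynaptic apparatus, read 5.61, 6.32 and 5.21 in null callus, against 6.85, 6.77 and 5.77 in heterozygous callus. Null replicates 1 and 3 lay under 5.75, the highest single value of the silent genes. The order of arrays for Musk differed from that of the receptor subunits: null replicate 2 was the highest null array and heterozygous replicate 3 the lowest heterozygous one. The null mean was 5.71 ± 0.56 against a heterozygous mean of 6.46 ± 0.60 (SD, n = 3 each), and the difference was -0.75 (SE 0.38), or -0.50 without null replicate 3.

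Rapsn, the scaffold under the receptor clusters, read 8.06, 7.23 and 7.22 in null callus, against 7.50, 7.58 and 7.80 in heterozygous callus. Null replicate 1 was the highest array and the other two null arrays the lowest. Its null mean was 7.50 ± 0.49 against a heterozygous mean of 7.63 ± 0.15 (SD, n = 3 each). The difference was -0.13 (SE 0.25), and its sign turned without null replicate 2 (0.01) and without null replicate 3 (0.02).

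Agrn, which codes for the agrin made by nerve, muscle and many basement-membrane cells, had 7.36, 6.99 and 7.49 in null callus, against 7.21, 7.12 and 7.42 in heterozygous callus on probe set 1426670_at. The difference was 0.03 (SE 0.16), and its sign was not kept in 5 of 10 alternative settings. These include quantile normalisation, where the difference was 0 after rounding. The array does not separate the neural splice form, which clusters receptors, from the others.

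Ache, the esterase that ends each signal in the synaptic cleft and is also made by red cell precursors, read 7.05, 7.20 and 7.41 in null callus. It read 6.88, 7.05 and 7.06 in heterozygous callus. Null replicate 1 lay inside the heterozygous range, and the other two null arrays lay above it. The null mean was 7.22 ± 0.18 against a heterozygous mean of 7.00 ± 0.10 (SD, n = 3 each), and the difference was 0.22 (SE 0.13); no other of the 10 genes had a higher one. Erythroid marker genes varied far more, with a list mean of -2.53, 1.49 and 0.64 in null callus, against 1.26, 1.32 and -2.18 in heterozygous callus. Their part in the Ache values was not tested.

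Ncam1, an adhesion molecule that spreads along denervated and regenerating fibres and also marks satellite cells, nerve and Schwann cells, was read by 7 probe sets that disagreed. Of these, 4 had a lower and 3 a higher null mean, and the lower ones include 1421966_at and 1450438_at, both at the silent level. Probe set 1450437_a_at, the highest, read 9.46, 8.68 and 7.46 in null callus, against 9.48, 9.66 and 9.19 in heterozygous callus, a difference of -0.91 (SE 0.48). The difference was -1.38 without null replicate 1 and -0.38 without null replicate 3, its lowest array.

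Another Ncam1 probe set, 1426864_a_at, read 8.47, 7.24 and 7.39 in null callus, against 7.55, 7.46 and 7.63 in heterozygous callus. Its difference was 0.15 (SE 0.32), with null replicate 1 alone at the top. Probe set 1425126_at was likewise highest on null replicate 1 (5.47), followed by heterozygous replicate 3 (4.58), and all its other values lay between 3.31 and 3.52. Probe set 1426865_a_at read 7.86, 6.02 and 5.52 in null callus, against 6.10, 6.09 and 6.94 in heterozygous callus, a difference of 0.09 (SE 0.60). Probe set 1439556_at read 6.95, 5.47 and 5.39 in null callus, against 6.32, 6.11 and 7.19 in heterozygous callus, a difference of -0.60 (SE 0.48). On both, null replicate 1 and heterozygous replicate 3 were the high arrays.

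**Figure D2:**
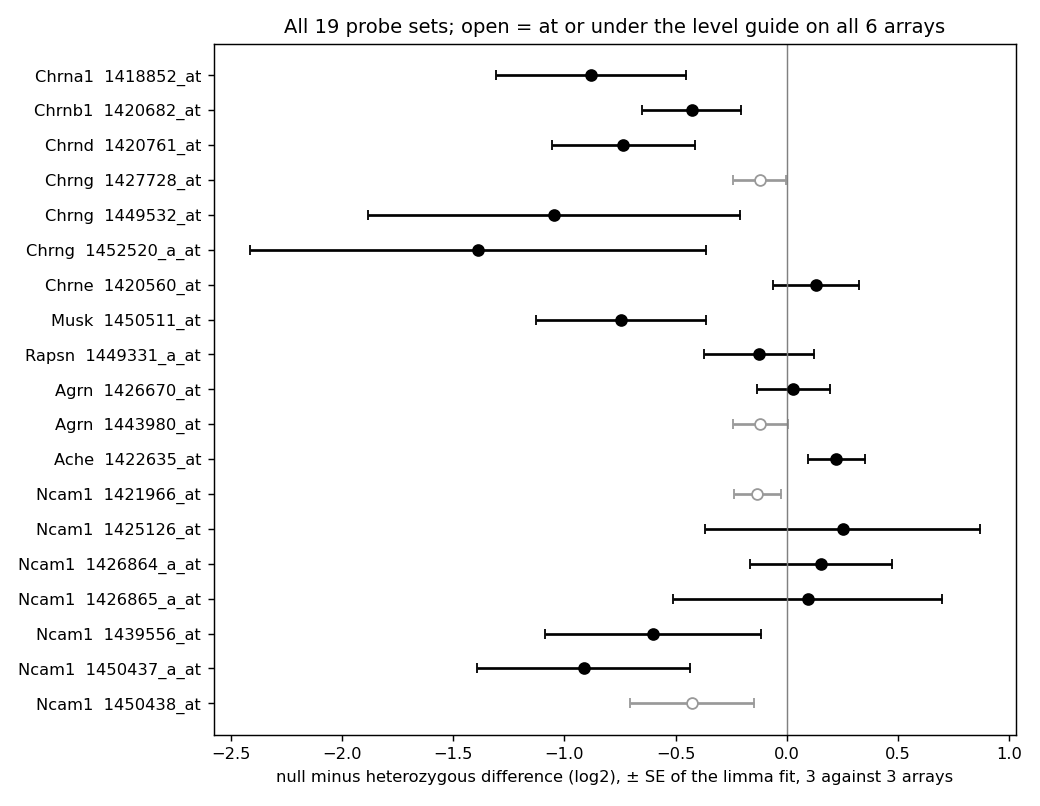
Null minus heterozygous difference (log2) with the SE of the limma fit for all 19 probe sets, grouped by gene; open grey symbols are the 4 probe sets at or under the level of silent genes on all 6 arrays. Chrna1 (-0.88), Chrnd (-0.74), Chrng (-1.05) and Musk (-0.75) lie left of 0, Chrne (0.13) and Ache (0.22) lie right of it, and the 7 Ncam1 probe sets fall on both sides.

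The variation among arrays grouped the subunits. By the root mean square difference between profiles of deviations over the 6 arrays, Chrna1 and Chrnd were the closest pair of subunits, at 0.18. Chrng was 0.57 from Chrna1 and 1.19 from Chrne. The value for Chrna1 and Ncam1 (1450437_a_at) was 0.25. Chrne was closest to Agrn, at 0.18, and to Ache, at 0.24, all 3 of which varied little.

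Among all genes with at least 0.5 times the SD of a subunit, the 3 profiles nearest to Chrna1 were Cdkn1a (0.15), Runx1 (0.17) and Chrnd itself. Cdkn1a encodes a cell cycle inhibitor and Runx1 a transcription factor that denervated muscle is known to induce. The nearest to Chrng were also Cdkn1a (0.47) and Runx1 (0.51), then the myosin-binding protein gene Mybph (0.54); the SD of Chrng itself was 1.30. For Chrnd they were the endothelin-converting enzyme gene Ece2, the tendon factor Scx and the transcription factor Tead4 (0.10 to 0.13). For Chrnb1 they were Sh3bp4, 4921531C22Rik and Traf1 (0.06 to 0.10), and for Chrne Npepl1, Sidt2 and Trim3 (0.06 to 0.07). With 6 arrays and 905 to 14421 candidate genes per subunit, such closeness is a description.

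**Figure D3:**
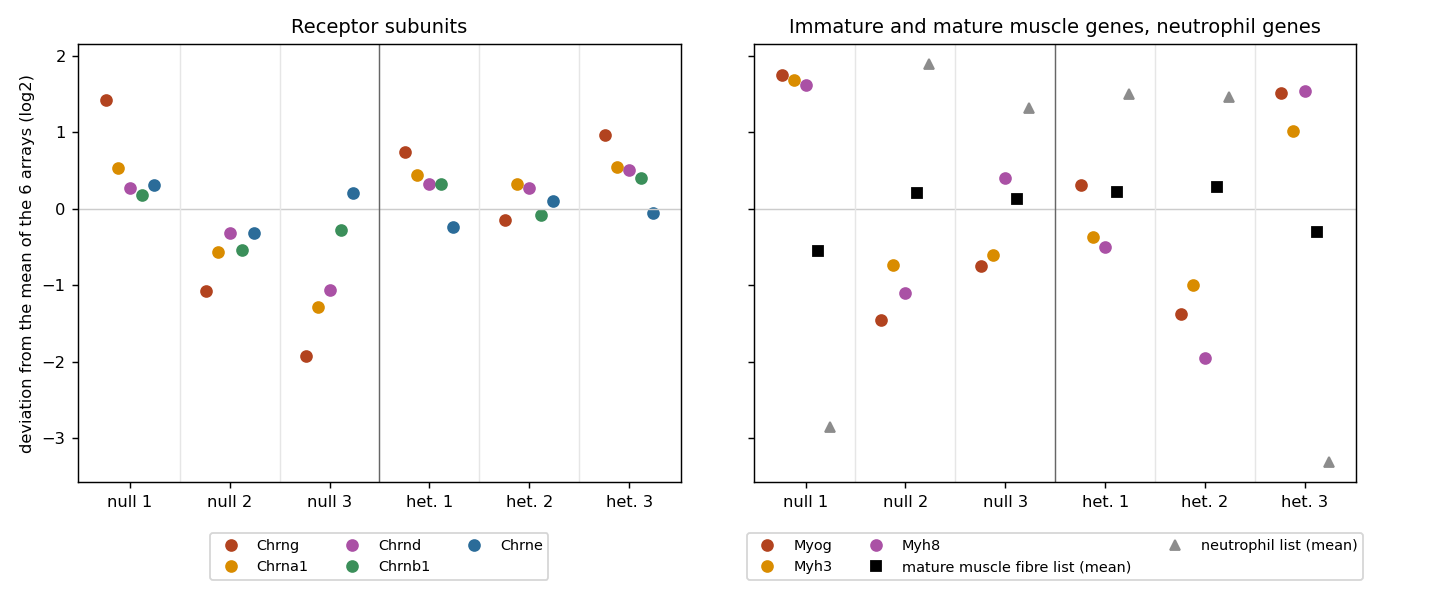
Deviation of each gene or list mean from its own mean over the 6 arrays (log2), for the 5 receptor subunits (left panel) and for Myog, Myh3, Myh8, the mature muscle fibre list and the neutrophil list (right panel), null arrays left of the dark line and heterozygous arrays right of it. Chrng spans 1.43 on null replicate 1 to -1.93 on null replicate 3 while Chrne stays between -0.32 and 0.31, and Myog, Myh3 and Myh8 are highest on the 2 arrays where the neutrophil list is at -2.86 and -3.32.

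Genes of newly formed fibres were high on the marrow-poor arrays. Myog, the factor that drives myoblast differentiation, read 10.33, 7.14 and 7.85 in null callus, against 8.90, 7.21 and 10.10 in heterozygous callus. The embryonic myosin gene Myh3 read 12.63, 10.21 and 10.35 in null callus, against 10.58, 9.96 and 11.97 in heterozygous callus. The perinatal myosin gene Myh8 read 12.05, 9.33 and 10.84 in null callus, against 9.94, 8.49 and 11.98 in heterozygous callus. For all 3, null replicate 1 and heterozygous replicate 3 were the highest arrays, as they were for Chrng. Chrng parted from them on heterozygous replicate 1, where it was high while Myh3 and Myh8 were not, and on null replicate 3, its lowest array.

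A list of 18 genes of denervated and immature muscle, of which 17 were measured, held 12 genes lower and 5 higher in null callus, with a median difference of -0.33 beside -0.0017 over all genes. In limma 0 of them passed an adjusted p of 0.05. At an unadjusted p of 0.05 there were 4 lower and 0 higher, and the groups did not overlap for 4, beside 4.49% of all genes at that p (2.43% lower and 2.06% higher) and 10.1% without overlap. Gadd45a, a stress gene that denervated fibres induce, read 9.13, 10.16 and 8.29 in null callus, against 11.27, 10.96 and 10.27 in heterozygous callus, a difference of -1.64 (SE 0.49). All null arrays lay below all heterozygous arrays.

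The myogenic factor genes Myod1 and Myf6 showed the same separation. Myod1 averaged 8.59 ± 0.78 in null against 9.86 ± 0.25 in heterozygous samples (SD, n = 3 each), a difference of -1.28 (SE 0.38). Myf6 averaged 10.80 ± 0.42 in null against 11.74 ± 0.16 in heterozygous samples (SD, n = 3 each), a difference of -0.94 (SE 0.22). Each had an adjusted p of 0.999 in limma. Runx1, named because its profile was near that of Chrna1, was lower on each of its 6 probe sets, by -1.01 (SE 0.49) on the highest.

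**Figure D4:**
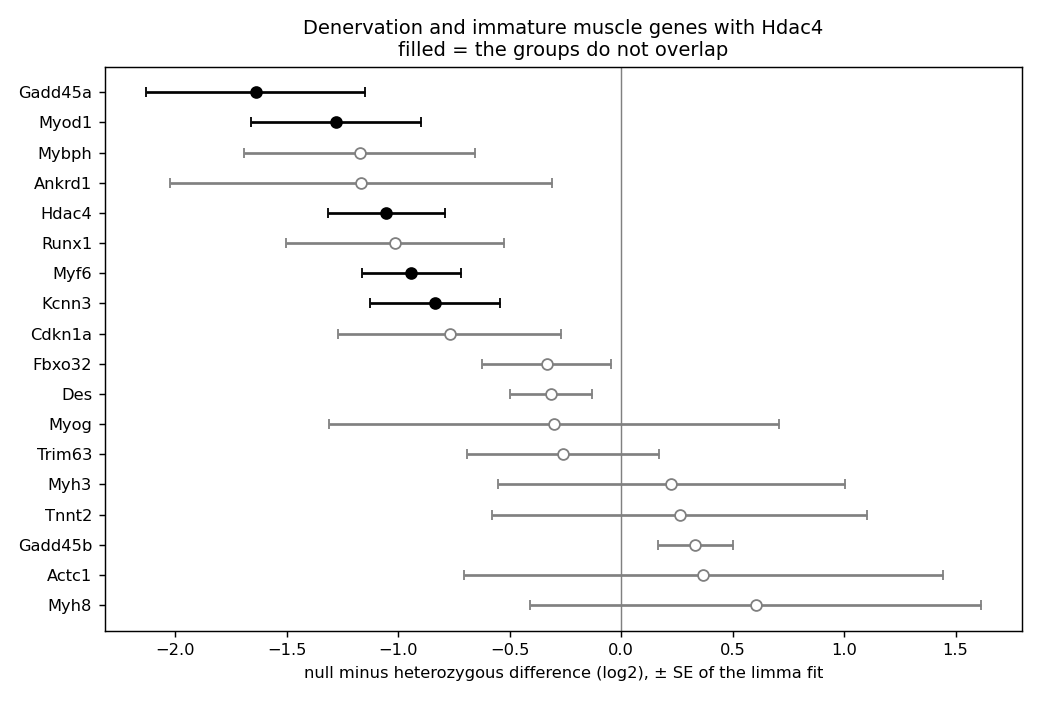
Null minus heterozygous difference (log2) with the SE of the limma fit for the 17 measured genes of the denervation and immature muscle list and for Hdac4, sorted by size; filled symbols are genes whose groups do not overlap. Gadd45a (-1.64), Myod1 (-1.28), Hdac4 (-1.05) and Myf6 (-0.94) are among the filled symbols, while Myog (-0.30), Myh3 (0.23) and Myh8 (0.60) have errors that cross 0. Hdac4 was picked from the neuregulin, Ets and synaptic transcription list as its gene with the lowest p. In that list 5 genes were lower and 6 higher, and its other genes are not shown.

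The pathway around the receptor was read from 3 further lists. Of the agrin, MuSK and receptor clustering genes, 14 of 17 were measured, 7 lower and 7 higher in null callus, with a median of 0.04. Lrp4, the agrin receptor, read 5.77, 5.71 and 5.64 in null callus, against 6.00, 5.78 and 6.04 in heterozygous callus, without overlap and with a difference of -0.23 (SE 0.11). Dok7 read 8.29, 7.71 and 8.05 in null callus, against 8.37, 8.51 and 8.20 in heterozygous callus, overlapping at null replicate 1, with a difference of -0.34 (SE 0.17). Dvl1, the gene of a dishevelled protein that binds MuSK, differed by -0.43 (SE 0.13) on 1437301_a_at, and its other probe set had the same sign. The groups did not overlap for 2 of the 14, Lrp4 and Dvl1, beside 10.1% of all genes. In limma 0 of the 14 passed an adjusted p of 0.05, and 1, Dvl1, had an unadjusted p under 0.05, beside 4.49% of all genes.

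Of the neuregulin, Ets and synaptic transcription genes all 11 were measured, 5 lower and 6 higher. Hdac4, a class IIa deacetylase that accumulates in denervated muscle and relieves the repression of myogenin, had the lowest p among them. It read 7.69, 8.28 and 7.34 in null callus, against 9.01, 8.94 and 8.51 in heterozygous callus, a difference of -1.05 (SE 0.26) with all 3 probe sets lower (adjusted p = 0.999 in limma). Gabpb1, a partner of the Ets factor that binds the N-box, was higher by 0.32 (SE 0.11) on 1 of its 2 probe sets, and Etv5 by 0.30 (SE 0.19). In this list 0 passed an adjusted p of 0.05 in limma, and 1 gene was lower and 1 higher at an unadjusted p of 0.05, beside 2.43% and 2.06% of all genes.

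Genes of the synaptic matrix and dystrophin complex, 19 of 20 measured, were lower in 5 and higher in 14 cases, with a median of 0.19. Dtna, which encodes the dystrobrevin of junctional and sarcolemmal membrane, averaged 8.79 ± 0.19 in null against 9.20 ± 0.14 in heterozygous samples (SD, n = 3 each). All 7 probe sets were lower, but 1453625_at was at the silent level (2.33 to 2.57), with a difference of -0.02 (SE 0.11). Col13a1, a collagen that binds the tail of synaptic esterase, averaged 4.86 ± 0.14 in null against 5.29 ± 0.24 in heterozygous samples (SD, n = 3 each). Its values were low, from 4.71 to 5.46, where single values of the silent genes reached 5.75. The leucine-rich proteoglycan gene Prelp, widespread in connective tissue, differed by 0.42 (SE 0.11). Colq, the tail itself, lay between 3.09 and 3.47 on all arrays, within the values of the silent genes. Again 0 passed an adjusted p of 0.05 in limma, while 2 were lower and 1 higher at an unadjusted p of 0.05, beside 2.43% and 2.06% of all genes.

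Transcripts of the nerve side of the synapse were mostly at the silent level, and the amount of nerve was not measured. Of 15 measured genes of motor nerve terminals, 12 lay at or under 4.57 on all arrays. The list's means ran from -0.16 to 0.01 in null and from -0.07 to 0.14 in heterozygous callus. Above 4.57 on some or all arrays were Uchl1 (6.90 to 9.46), Vamp1 (7.42 to 7.91) and Stmn2 (4.45 to 5.07). Chat, the acetylcholine-synthesising enzyme, averaged 2.88 in null and 2.81 in heterozygous callus. Of 10 measured neuronal nicotinic subunits, 9 were at or under that level on all arrays. Schwann cell and myelin genes, which also include sources of Ncam1, had list means of -0.19, 0.40 and 0.23 in null callus, against -0.11, -0.02 and -0.30 in heterozygous callus, with 9 of 13 higher in null callus. Satellite cell genes, another source of Ncam1, had means of 0.44, -0.40 and 0.04 in null callus, against -0.15, -0.32 and 0.40 in heterozygous callus, highest on null replicate 1 and heterozygous replicate 3 as was 1425126_at of Ncam1. The part of these cells in the Ncam1 values was not tested.

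The mean of the mature fibre genes was used as a rough scale for muscle content. It leaned on the genes that varied most. Over the arrays Myh7 ran from 6.75 to 11.90 and Myh2 from 11.01 to 13.53. Acta1, the highest value of every array, ran only from 14.395 to 14.49. Whether values this high can still show differences in muscle amount was not tested. How far the mean followed fibre type rather than muscle amount was not tested. The list mean was -0.55, 0.21 and 0.13 in null callus, against 0.22, 0.29 and -0.30 in heterozygous callus. The difference was -0.14 (SE 0.31), with 19 of 22 genes lower in null callus. After this mean was subtracted on each array, Chrna1 was at 1.08, -0.78 and -1.42 in null callus, against 0.22, 0.04 and 0.85 in heterozygous callus. The difference was then -0.74 (SE 0.79), with null replicate 1, poorest in mature fibre genes, as the highest array. With both marrow-poor arrays left out, the differences over 2 null and 2 heterozygous arrays were -1.31 for Chrna1, -0.99 for Chrnd, -0.53 for Chrnb1, -1.80 for Chrng, 0.01 for Chrne, -1.04 for Musk, -1.50 for Ncam1, -0.32 for Rapsn and 0.34 for Ache. With all arrays and the mean of the mature fibre genes as a covariate, the differences were -1.07 (SE 0.30) for Chrna1, -0.86 (SE 0.24) for Chrnd, -0.53 (SE 0.14) for Chrnb1, -1.46 (SE 0.46) for Chrng and 0.08 (SE 0.18) for Chrne. They were -0.62 (SE 0.32) for Musk, -1.03 (SE 0.44) for Ncam1, -0.25 (SE 0.13) for Rapsn, 0.24 (SE 0.13) for Ache and -0.02 (SE 0.15) for Agrn. Chrna1 was thus at -0.88 without the mean, -0.74 after subtraction and -1.07 with the covariate. The slope on the mean was fitted for each gene, so the covariate need not act as a correction for muscle content. The part of muscle content in the receptor values was not tested.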

How the data were processed

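Callus RNA was measured on Affymetrix Mouse 430_2 arrays, per the labels' protocols. The authors' deposited table holds 1 value per probe set and array, taken as log2 intensity from its range. Probe summarisation and normalisation are steps not given in the sources used here, and the near-equal distributions of the arrays (medians 4.55 to 4.59) mean that a shift common to all genes would not be seen. Of 45101 probe sets, 64 controls were left out. Symbols came from the platform annotation (34945 probe sets with 1 symbol, 932 with several, 9160 with none listed), and all 10 members matched a RefSeq table by gene identifier with 0 symbols changed. Arrays correlated at 0.970 to 0.991 across probe sets.

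Null minus heterozygous differences were fitted with limma 3.58.1 in R 4.3.3 (lmFit, eBayes, two-sided, Benjamini-Hochberg over 45037 probe sets, threshold 0.05), without filter or covariate, and the code was tested on simulated data. Each gene was represented by its probe set with the highest mean. An exact permutation test of 3 against 3 arrays cannot go below a two-sided p of 0.1. The SE of per-array differences such as Chrng against Chrne comes from the group variances.

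Members, lists and tests were chosen with earlier results of these data known. All member probe sets were to be named, and of every other list the up to 3 genes with the lowest unadjusted p plus Lrp4, Dok7, Colq, Myog, Myh3, Myh8, Acta1, Ckm, S100a8 and Slc4a1. Likeness of a subunit was the root mean square difference of deviations over the 6 arrays. Chat, Kcnn3, Myh2, Myh7, Stmn2, Uchl1 and Vamp1 were added after their values were seen, and the 3 profiles nearest to each subunit were named. Genes sought but not measured on a probe set with 1 symbol are not analysed here. The number of arrays limits the precision.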

Additional observations from a re-analysis of the deposited data

How the results depend on the processing

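No paired analysis was possible because the labels give no replicate numbers shared between the groups. The number of probe sets at an adjusted p of 0.05 in limma was 0, and was 0 under every alternative except the mature muscle fibre mean as a covariate, which gave 1, the unnamed probe set 1447360_at. The number at an unadjusted p of 0.05, 1660, was 3305 with that covariate, 3453 with both marrow-poor arrays left out and 4631 with array weights. It was 746 among probe sets at or above the median level and 771 with 1 probe set per gene, where fewer were tested, and 228 at an unadjusted p of 0.01. Leaving out 1 array gave 1048 (null replicate 3) to 2721 (heterozygous replicate 3). With the muscle covariate 6 of the 19 probe sets of the junction genes were at an unadjusted p of 0.05 in limma, beside 7.34% of all probe sets. Because the genes were chosen with results of this comparison known, that count is a description and no evidence of enrichment. Probe sets of the same gene were counted separately. The median difference over the 10 genes ranged from -0.76 to -0.33, and the difference of Chrng minus Chrne from -2.03 to -0.40, without a change of sign. Of 100 recomputed values of single genes, 0 moved by more than the SD between replicates. For settings that left out 1 array this was fixed in advance, since 1 of 3 arrays cannot shift a group mean by that SD. The 0 is therefore no measure of stability there, and with 1 array left out Chrng ran from -2.02 to -0.345. Signs turned for Rapsn and Agrn, as given above, and for no other of the 10 genes in the 10 settings. Why the counts moved with the muscle covariate, array weights and left-out arrays was not tested.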

Other observations

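Some lists beside the junction genes held genes whose groups did not overlap, as was so for 10.1% of all genes. In limma 0 genes of any list passed an adjusted p of 0.05. Pmp22, a peripheral myelin gene that fibroblasts and many other cells also use, read 10.11, 10.21 and 10.39 in null callus, against 9.19, 9.24 and 9.69 in heterozygous callus, a difference of 0.86 (SE 0.17). In the same Schwann cell and myelin list Ncmap differed by 0.68 (SE 0.35). At an unadjusted p of 0.05, 0 of 13 genes were lower and 2 higher, beside 2.43% and 2.06% of all genes. The second of these, Fabp7, lay between 3.35 and 4.03, under the level of the silent genes (4.57) on all arrays. Of the bone and cartilage genes 9 of 14 were lower in null callus, beside 50.3% of all genes, and 2 reached an unadjusted p of 0.05, beside 4.49% of all genes. They were Ibsp, which differed by -0.56 (SE 0.16), and the mineralising phosphatase gene Alpl, by -0.32 (SE 0.10). The cartilage collagen gene Col2a1 read 8.16, 7.04 and 9.28 in null callus, against 9.76, 8.92 and 9.13 in heterozygous callus.

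Kcnn3, a channel gene that denervated muscle induces, differed by -0.84 (SE 0.29) without overlap. Its values were low, from 4.11 (null replicate 3) to 5.78, where single values of the silent genes reached 5.75. Shc4, an adaptor that binds MuSK, and the satellite cell factor Pax3 lay under 4.57 on all arrays, at 3.64 to 4.22 and 3.51 to 3.96. Among mature fibre genes the differences were -0.57 (SE 0.29) for Cacna1s, -0.24 (SE 0.18) for Actn3 and -0.38 (SE 0.31) for Ryr1. For satellite cell genes they were 0.24 (SE 0.11) for Cxcr4 and 0.32 (SE 0.40) for Chodl. Lymphocyte genes gave 1.02 (SE 0.54) for Gzma, -0.24 (SE 0.14) for Cd3e and 0.36 (SE 0.23) for Klrd1. Marrow genes gave -0.28 (SE 0.63) for Mmp9, 0.61 (SE 1.59) for S100a9 and 0.51 (SE 1.50) for Lcn2 of neutrophils, and -0.48 (SE 0.38) for Sptb, -0.14 (SE 0.34) for Tfrc and -0.57 (SE 1.49) for Alas2 of red cells. The neuronal subunit genes Chrna2 (-0.28), Chrnb3 (0.20) and Chrna6 (-0.17) and the nerve terminal genes Syt2 (-0.32), Syt1 (-0.25) and Slc18a3 (-0.26) differed at levels of 2.52 to 3.72 and so within the range of the silent genes.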
